A study of Arabidopsis thaliana with 12 samples.

Results

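A set of 66 probe sets of 22746 on the array had higher values with abscisic acid (ABA) in young Arabidopsis thaliana plants and, averaged over both ABA levels, differed little between white light and white light with supplemental far-red. The members were chosen from the group means of the log2 values. The averaged ABA effect, the mean of both groups with ABA minus the mean of both groups without, had to be at least 1 log2 unit. The averaged far-red effect, far-red minus white light over both ABA levels, had to lie within 0.3 log2 units of 0, and the highest group mean had to be at least 5 log2 units. These limits were met by 77 probe sets, of which 11 (those for COR15A, LTI30, LEA4-5, HIS1-3, SAG29, DFR, UF3GT, AT4G14090, AT2G37870, AT4G33550 and AT3G53980) were left out by name, as the rule states. Of the 66 members, 24 were listed with a single gene in the platform's annotation, 2 were listed with several genes, and 40 were not listed and are unnamed here. Because the ABA and far-red effects of these same arrays chose the members, their sizes are a description and carry no test.

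The plants were 10 days old and only their aerial parts were sampled. Continuous white light at 22 °C was used for the first 9 days, and 1 of 4 treatments for the last 24 hours. The white-light group received white light and no ABA, the white light with ABA group received ABA, the far-red group received white light with supplemental far-red light and no ABA, and the far-red with ABA group received all of these. Each group had 3 arrays, which the labels call biological replicates. ABA was given at 1 mM, white light at 80 and far-red at 6 mmol of light a second on each square metre, in the units the labels print, and whether these prefixes were intended could not be checked. The sources used here name no ecotype or genotype. The leaf mesophyll markers RCA, PRK, SBPASE and LHCB4.1 were called present on every array, with group means of 12 to 13.36 log2 units. The root markers EXPA7 and EXPA18 were present on none, at 3.52 to 4.08. FMA, the measured marker of the guard cell lineage, was present on every array, at 5.91 to 6.21, and fell by 0.29 log2 units with ABA under far-red (limma adjusted p = 0.042). Its part in the members' values was not tested. In such bulk tissue, fewer cells of a type and less RNA per cell cannot be told apart.

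ABA is the plant hormone of drought, cold and seed maturation. It binds receptors that then inhibit protein phosphatases of the PP2C family. Kinases of the SnRK2 family are thereby released and activate bZIP transcription factors, which switch on genes for protective proteins, transporters and feedback regulators. Supplemental far-red light imitates the shade of a leaf canopy. It shifts the photoreceptor phytochrome B to its inactive form and releases growth-promoting PIF transcription factors.

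Each array's median over all probe sets was 5.45 to 5.62 log2 units, and 60.6% to 67.2% of them had a present call. Far-red replicate 3 had the highest value of both. The median of the 66 members was 5.49 to 5.63 on the white-light arrays, 7.15 to 7.25 on those with ABA, 5.49 to 5.67 on the far-red arrays and 7.08 to 7.20 on those with far-red and ABA. The arrays without ABA and those with it therefore formed separate ranges of this median, as the choice of members fixes.

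The averaged ABA effect of the members had a median of 1.34 log2 units and ran from 1.01 to 6.29. It was under 1.5 in 44 members, 1.5 to under 2 in 16 and at least 2 in 6. All 6 of the last are without a single listed gene, while the 24 named members ran from 1.01 to 1.95. The averaged far-red effect was above 0 in 41 members and below 0 in 25, with a median of 0.07. It lay within 0.1 of 0 in 20. Just inside the ABA limit were AT2G43620 at 1.015, AT1G79520 at 1.023 and an unnamed probe set at 1.026, and just outside were AT3G01350 at 0.998, AT1G12030 at 0.997 and an unnamed probe set at 0.990. Just inside the far-red limit were an unnamed probe set at 0.299, AT3G28220 at 0.297 and ATC at 0.287. The nearest outside it had 0.330, 0.336 (AT3G19620) and 0.340. The lowest highest means inside the level limit were 5.08, 5.11 and 5.13 (AT2G18370), and just outside were 4.93 (AT5G09480), 4.91 and 4.84. The choice rested on single arrays for 10 of the named genes. As each of the 12 arrays was left out in turn, AT4G36700, AT1G79520 and AT2G43620 missed a limit 6 times, AT5G22460, ATC and AT3G28220 5 times, AT2G18370 3 times and AT5G03350 2 times. BHLH101 missed one without far-red replicate 3 and AT1G01250 without white light replicate 2.

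**Figure D1:**
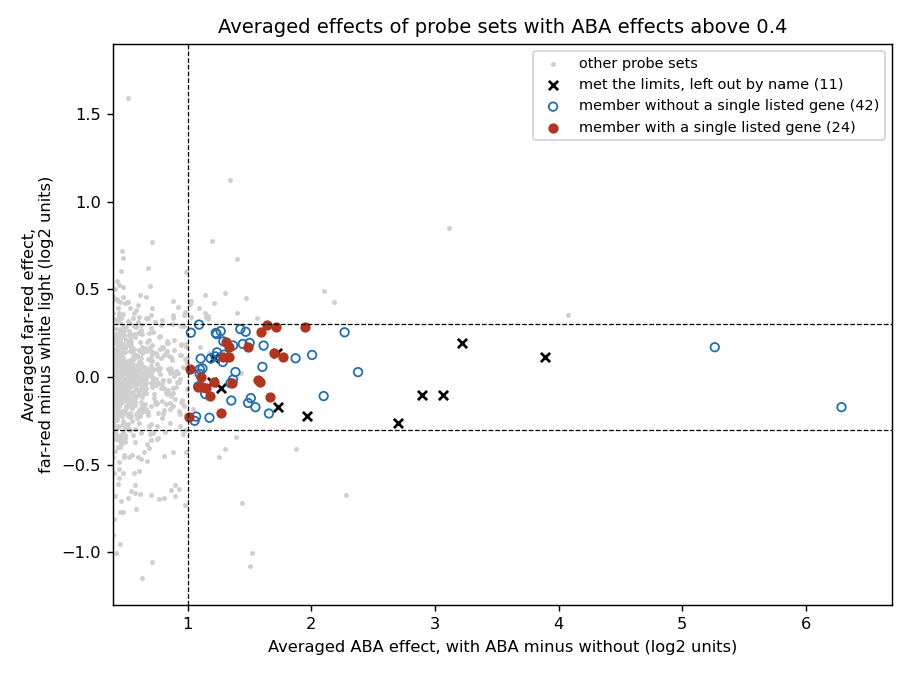
Averaged far-red effect against averaged ABA effect in log2 units, for the probe sets with an ABA effect above 0.4. Filled points are the 24 members with a single listed gene, open circles the 42 other members, crosses the 11 genes left out by name and dashed lines the limits of 1 and 0.3. The 2 members with effects of 5.26 and 6.29 stand far to the right of the rest.

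The largest responses of the set belong to 2 probe sets that the platform table does not list, 247718_at and 247717_at. On the white-light arrays 247718_at read 3.79, 3.82 and 4.31, and with ABA it read 10.31, 9.82 and 10.38. Its far-red values were 3.64, 3.63 and 3.86 without ABA and 10.31, 9.86 and 10.10 with it. It had no present call without ABA and one on every array with it. With ABA it was thus at least 73.2-fold higher in white light and at least 83.4-fold higher under far-red (SE 0.16 log2 units each). Here and below, such a bound allows for missing calls and not for the spread between arrays. The probe set 247717_at was present on all arrays. It read 5.51, 5.72 and 5.21 in white light, 10.64, 10.64 and 10.85 in white light with ABA, 5.45, 5.87 and 5.52 under far-red and 10.90, 11.12 and 10.72 under far-red with ABA. These are differences of 5.23 (SE 0.14) and 5.30 (SE 0.14) log2 units, or 37.5-fold and 39.3-fold. No array of either probe set came near the other ABA level. The other 40 members without a single listed gene had averaged effects of 1.03 to 2.38.

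**Figure D2:**
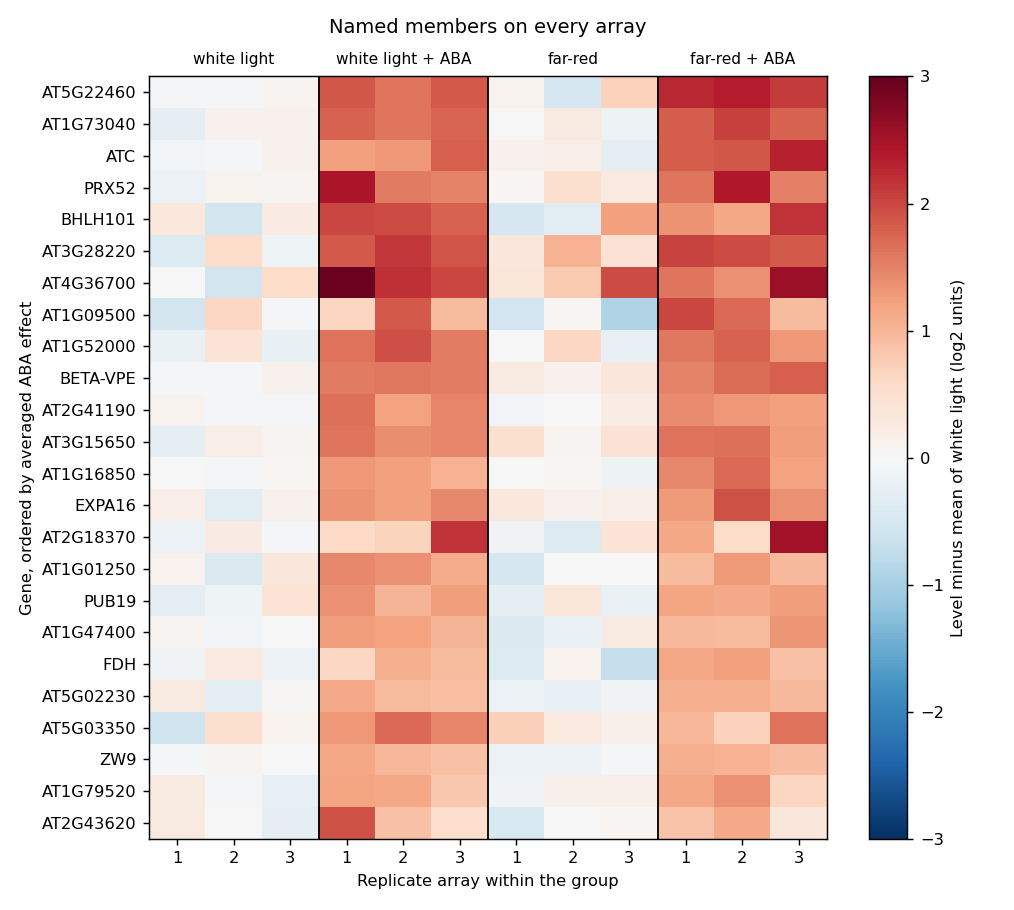
Level of the 24 named members on each of the 12 arrays minus the mean of the white-light arrays, in log2 units, with genes in rows ordered by averaged ABA effect (1.95 at the top, 1.01 at the bottom) and arrays in columns by group and replicate. The columns with ABA are red for every gene in both light conditions. Replicate 3 of the far-red group is red in AT4G36700 and BHLH101.

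The named regulators were a flowering repressor, 2 transcription factors and a ubiquitin ligase. ATC (AT2G27550), a relative of TERMINAL FLOWER 1 and of the florigen FT that represses flowering, read 4.33, 4.36 and 4.55 on the white-light arrays and 5.66, 5.72 and 6.22 with ABA. Under far-red it read 4.56, 4.61 and 4.16 without ABA and 6.24, 6.29 and 6.72 with it. Every array without ABA lacked a present call and all 6 with ABA had one, so its rise is a bound. It was at least 2.74-fold in white light and at least 3.92-fold under far-red (SE 0.16 log2 units each). The far-red arrays with ABA all lay above the white-light arrays with ABA, by 0.55 log2 units on average (SE 0.16), while those without ABA overlapped.

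BHLH101 (AT5G04150) is a basic helix-loop-helix factor of the iron-deficiency response. It read 5.85, 4.98 and 5.77 in white light and 7.53, 7.49 and 7.31 with ABA, a difference of 1.92 log2 units (SE 0.36). Under far-red light it read 5.03, 5.19 and 6.76, and with ABA 6.87, 6.68 and 7.70. Here the groups overlapped, since far-red replicate 3 lay above 1 of the arrays with ABA. The difference was 1.42 (SE 0.36) with all arrays and 1.97 without that array.

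AT1G01250, an AP2/ERF factor of the DREB subfamily, had group means of 4.30 ± 0.39 in white light and 5.61 ± 0.18 with ABA (mean ± SD in log2 units, n = 3, here and below). Its means were 4.13 ± 0.29 under far-red and 5.37 ± 0.17 under far-red with ABA. In both light conditions every array with ABA lay above every array without. PUB19 (AT1G60190), a U-box ubiquitin ligase known to dampen ABA responses, read 4.46, 4.59 and 5.12 and, with ABA, 6.09, 5.74 and 5.98 in white light. The far-red arrays gave 4.46, 5.09 and 4.53 without ABA and 5.91, 5.85 and 5.97 with it. The difference was 1.21 log2 units in each light condition (SE 0.17). PUB19 had present calls on only 1 of 3 arrays of each ABA group and on none without ABA. Most of its arrays with ABA thus lacked a call as well, and the 2.32-fold difference in each light condition is not a firm bound.

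**Figure D3:**
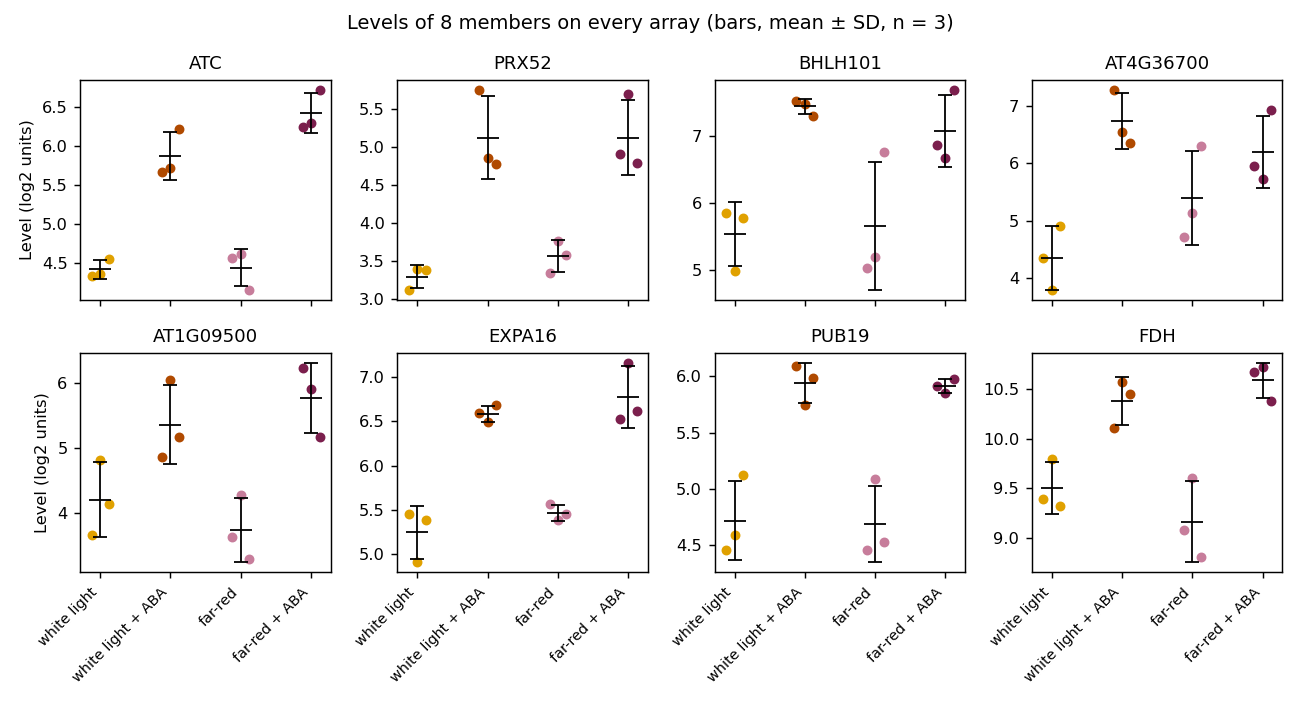
Level in log2 units (vertical axis, a separate scale for each gene) of 8 named members on every array by group, with points for arrays and bars for the mean ± SD of 3 arrays. All of these genes have higher means with ABA in both light conditions. Far-red replicate 3 lies among the ABA arrays in BHLH101, at 6.76, and in AT4G36700, at 6.30.

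A further iron-related gene and a one-carbon enzyme were members as well. AT1G47400 encodes a short peptide of the IRONMAN family, which promotes iron uptake. Its means were 9.17 ± 0.08 in white light, 10.33 ± 0.12 with ABA, 9.04 ± 0.36 under far-red and 10.25 ± 0.21 with both. The rise was 2.24-fold in white light and 2.3-fold under far-red. FDH (AT5G14780), the mitochondrial formate dehydrogenase, read 9.39, 9.80 and 9.32 in white light and 10.11, 10.57 and 10.45 with ABA. The far-red groups read 9.08, 9.60 and 8.80 without ABA and 10.67, 10.72 and 10.38 with it. With ABA it was 1.83-fold higher in white light (SE 0.18 log2 units) and 2.69-fold higher under far-red (SE 0.18), and the groups did not overlap in either.

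Members that act in the cell wall or at its surface were a peroxidase, an expansin and a lipid-transfer protein. PRX52 (AT5G05340), a class III peroxidase of lignin formation, read 3.13, 3.40 and 3.39 in white light and 5.76, 4.86 and 4.78 with ABA. Under far-red the values were 3.35, 3.77 and 3.59 and, with ABA, 4.91, 5.70 and 4.80. It was called present on all 6 arrays with ABA and on none without. With ABA it was at least 3.55-fold and at least 2.96-fold higher (SE 0.24 log2 units each). In each ABA group 1 array (white light with ABA replicate 1, far-red with ABA replicate 2) stood well above the other 2. EXPA16 (AT3G55500), an alpha-expansin, one of the proteins that loosen cell walls, read 5.46, 4.91 and 5.39 in white light and 6.59, 6.49 and 6.68 with ABA. Values under far-red were 5.57, 5.39 and 5.46 and, with ABA, 6.53, 7.16 and 6.61. The differences of 1.33 and 1.29 log2 units (SE 0.16 each) were alike in size, and no arrays overlapped.

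AT2G18370 encodes a small protein of the lipid-transfer family. It read 3.55, 3.96 and 3.66 in white light and 4.32, 4.38 and 5.89 with ABA. With far-red the values were 3.62, 3.31 and 4.14, and 4.87, 4.28 and 6.23 with ABA. Replicate 3 of both ABA groups was the highest by over 1 log2 unit. Without it the difference was 0.63 in white light in place of 1.14 (SE 0.43), and 0.89 under far-red in place of 1.44 (SE 0.43).

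Lectins, TRAF-like proteins and a chitinase made up 6 of the named members. AT1G73040, a jacalin-type mannose-binding lectin, read 5.17, 5.60 and 5.60 in white light, and with ABA it read 7.22, 7.07 and 7.21. Under far-red the values were 5.48, 5.74 and 5.31 and, with ABA, 7.27, 7.51 and 7.24. It was 3.28-fold and 3.55-fold higher with ABA (SE 0.13 log2 units each), with wide gaps between the groups. AT1G52000, a further jacalin-type lectin, read 6.51, 7.10 and 6.48 in white light and 8.34, 8.64 and 8.24 with ABA. Far-red light gave 6.69, 7.32 and 6.46 and, with ABA, 8.29, 8.46 and 7.99. Replicate 2 was the highest of each of its 4 groups. The differences were 1.71 and 1.42 log2 units (SE 0.20 each).

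AT5G03350, a legume-type lectin known to respond to salicylic acid, read 7.35, 8.43 and 8.05 in white light and 9.25, 9.66 and 9.41 with ABA. Under far-red it read 8.67, 8.24 and 8.10, and 8.95, 8.64 and 9.57 with ABA. The groups were apart in white light (2.82-fold, SE 0.25 log2 units) and overlapped under far-red, where the difference was 0.72 log2 units (SE 0.25), or 0.46 without far-red with ABA replicate 3. AT3G28220, of the family of TRAF-like (MATH domain) proteins, read 8.44, 9.42 and 8.73 in white light and 10.69, 10.97 and 10.74 with ABA. Its far-red values were 9.19, 9.90 and 9.29 and, with ABA, 10.89, 10.81 and 10.69. The arrays with ABA lay within 0.3 log2 units of each other over both light conditions, and those without ABA spread more widely.

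ZW9 (AT1G58270), a further TRAF-like protein, had means of 9.46 ± 0.08 in white light and 10.47 ± 0.14 with ABA. They were 9.32 ± 0.06 under far-red and 10.48 ± 0.09 with both, with no overlap between ABA levels. AT2G43620, of the chitinase family, was 2.15-fold higher with ABA in white light (SE 0.28 log2 units) and 1.9-fold higher under far-red. Its white light with ABA arrays read 9.19, 8.16 and 7.77, and without replicate 1 of these the difference in white light was 0.70 in place of 1.11.

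The largest averaged ABA effect among the named members belonged to AT5G22460, an alpha/beta-hydrolase family protein. It read 4.87, 4.89 and 5.02 in white light and 6.79, 6.53 and 6.76 with ABA. Under far-red it read 5.03, 4.42 and 5.63, and 7.18, 7.29 and 7.03 with ABA. With ABA it was at least 3.41-fold higher in white light, where it had no present call without ABA. Under far-red it was 4.4-fold higher (SE 0.20 log2 units in each light condition). AT3G15650, another alpha/beta-hydrolase, read 5.59, 6.08 and 5.95 in white light and 7.48, 7.27 and 7.34 with ABA. Without ABA the far-red arrays read 6.34, 5.95 and 6.31, and with it they read 7.50, 7.52 and 7.12. The ABA groups overlapped between the light conditions, and each lay above its group without ABA.

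AT4G36700, a cupin-domain protein, is the named member whose values differed most between the light conditions. It read 4.35, 3.80 and 4.91 in white light and 7.28, 6.54 and 6.35 with ABA, a 5.18-fold difference (SE 0.38 log2 units). Under far-red it read 4.72, 5.14 and 6.30, and 5.96, 5.72 and 6.92 with ABA. Replicate 3 was the highest array of both far-red groups, and the groups overlapped. Their difference was 0.81 log2 units (SE 0.38). It became 1.27 when replicate 3 of the far-red group was left out, 0.48 when replicate 1 was, and 0.45 when replicate 3 of the group with ABA was. AT1G09500, related to cinnamyl alcohol dehydrogenases, leaned the other way. It read 3.67, 4.82 and 4.14 in white light and 4.86, 6.04 and 5.17 with ABA, and 3.64, 4.28 and 3.31 under far-red and 6.22, 5.91 and 5.17 with both. Its groups did not overlap in either light condition, with differences of 1.15 and 2.02 log2 units (SE 0.34 each).

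The remaining named members are a protease, members of transporter families, a hydrolase and a protein of unknown function. BETA-VPE (AT1G62710), a vacuolar processing enzyme that matures seed storage proteins, read 4.80, 4.81 and 5.00 in white light and 6.43, 6.45 and 6.41 with ABA. Its far-red values were 5.13, 4.99 and 5.22 and, with ABA, 6.36, 6.54 and 6.67. Its arrays agreed closely within groups, and it was 2.95-fold and 2.66-fold higher with ABA. AT2G41190, of the amino acid transporter family, read 5.97, 5.82 and 5.80 in white light and 7.52, 7.07 and 7.32 with ABA. In far-red it read 5.77, 5.86 and 6.09, and 7.28, 7.17 and 7.10 with ABA. The differences were 1.44 and 1.27 log2 units (SE 0.11 each), with no overlap.

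AT1G16850, whose function is unknown, read 4.14, 4.08 and 4.21 in white light and 5.44, 5.37 and 5.18 with ABA. Under far-red these were 4.14, 4.21 and 3.99 and, with ABA, 5.57, 5.85 and 5.34. It had present calls on all 6 arrays with ABA and on none without, and was at least 2.28-fold and at least 2.77-fold higher (SE 0.12 log2 units each). AT1G79520, of the cation efflux family, and AT5G02230, of the haloacid dehalogenase-like hydrolases, were the other 2. AT1G79520 was 2.08-fold and 1.99-fold higher with ABA, and AT5G02230 1.99-fold and 2.36-fold. No 2 of the 24 named genes are neighbours in the RefSeq order of protein-coding genes.

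The detection calls split the members by how much signal they had without ABA. The rule did not read these calls, but they come from the same arrays. Its limits on the ABA effect and on the highest mean favour present calls with ABA over those without. The counts and shares of calls are therefore a description. All 6 arrays without ABA gave a present call for 41 members, some but not all for 17, and none for 8. With ABA, 64 of the 66 were present on all 6 arrays. A change from no present call to 6 was seen in 6 members, among them ATC, PRX52 and AT1G16850, against 12 probe sets (0.0528%) of the whole array, though the choice of members favours this. Present calls made up 71.7% of the members' calls in white light, 78.3% under far-red and 98.5% in each ABA group. The same shares over all probe sets were 61.9%, 63.6%, 65.1% in white light with ABA and 62.4% in far-red with ABA. Far-red replicate 3 had the most members present without ABA, 57 of 66, against 44 to 51 on the other arrays without ABA.

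In each light condition the ABA difference was above 0 for all 66 members. Its median was 1.34 log2 units in white light (range 0.87 to 6.19) and 1.32 under far-red (0.49 to 6.38), beside -0.0022 and -0.01 over all probe sets. Every array with ABA lay above every array without for 64 members in white light (12.8% of all probe sets did so) and for 63 under far-red (12.3%), and for 61 in both (5.9%). The named members whose groups overlapped were BHLH101, AT4G36700 and AT5G03350, each under far-red. The limma fit called 62 members higher in white light (percentage over all probe sets 4.02%) and 61 under far-red (5.06%), at an adjusted p under 0.05. These contrasts share the ABA effect that chose the members, so nothing is read from those counts. Those not called in white light included AT1G09500 and AT2G18370, and those not called under far-red AT4G36700, AT5G03350 and AT2G43620.

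**Figure D4:**
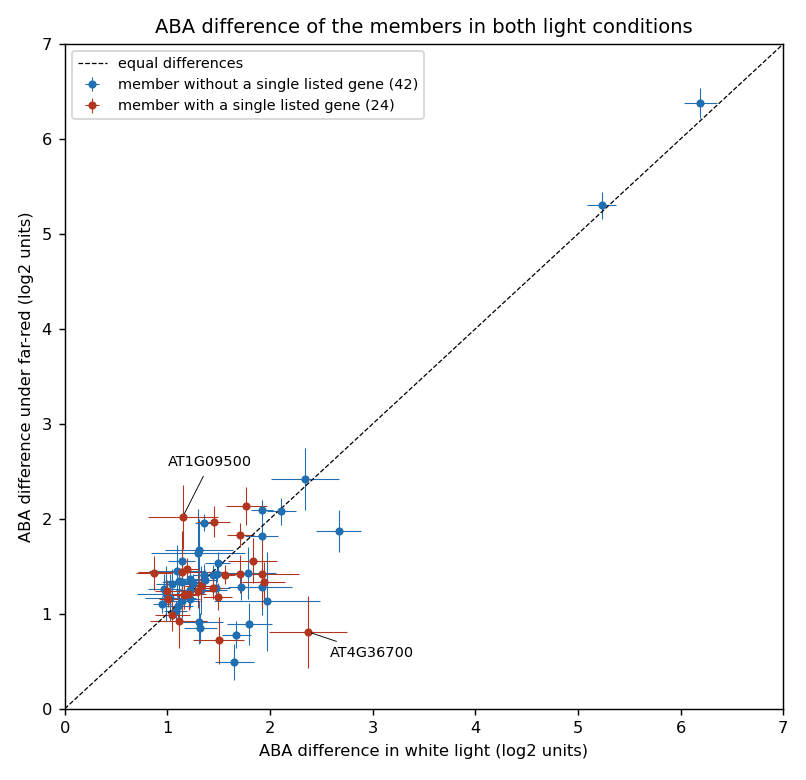
ABA difference under far-red against ABA difference in white light in log2 units for the 66 members, with bars of 1 standard error and a dashed line at equal differences. Most members lie along the line, 35 below and 31 above it. AT4G36700 (2.37 in white light, 0.81 under far-red) and AT1G09500 (1.15 and 2.02) are marked.

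The far-red effect was limited by the rule only as an average over both ABA levels. Without ABA it ran from -0.51 to 1.04 over the members, and was above 0 in 42 and below 0 in 24. With ABA it ran from -0.81 to 0.55, above 0 in 39 and below 0 in 27. Without ABA, limma called 1 member higher (3.87% of all probe sets were) and 1 lower (2.26%), neither with a single listed gene. Among named members AT3G28220, at 0.60 log2 units with all arrays, passed without white light replicate 2 (0.88, limma adjusted p = 0.00965). Without that array it also missed the rule's far-red limit, so the rule would not have chosen it. With ABA limma called 0 of 66 (0.369% of all probe sets in either direction), and 10 members (15.2%) had an unadjusted p under 0.05, beside 11.3% of all probe sets. The choice of members favours low counts. With all arrays, the widest far-red difference without ABA was that of AT4G36700, 1.04 log2 units (SE 0.38), but it was 0.58 without far-red replicate 3, an alternative chosen after seeing the data. With ABA the difference of this gene was -0.53 (SE 0.38). Left-out arrays moved that to -0.25 (white light with ABA replicate 1), -0.29 (far-red with ABA replicate 2) or -0.89 (far-red with ABA replicate 3). Its averaged far-red effect, 0.25, is a mean of differences with opposite signs.

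Whether the ABA response differed between the light conditions is the interaction, the ABA difference under far-red minus that in white light. It is independent of both averaged effects, although the level limit reads single group means. AT2G18370, 256243_at and 262482_at met that limit only through the far-red with ABA group, which favours interactions above 0, and theirs were 0.30, 0.36 and 0.19 log2 units. None of the 66 members passed in limma (two-sided, adjusted over 22746 probe sets), and the lowest adjusted p among them was 0.529. Over the array 0 probe sets (0%) passed, or 2 with an intensity-trended robust variance. At an unadjusted p under 0.05 there were 11 members (16.7%), 7 with an interaction below 0 and 4 above, beside 6.44% of all probe sets, 952 below and 513 above. The median interaction of the members was -0.01 log2 units, as over all probe sets, with 31 above 0 and 35 below. Its size was under 0.3 in 42 members (63.6%), against 91% of all probe sets, while the members' pooled SD within groups had a median of 0.25 against 0.13.

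Among the named members AT4G36700 had the lowest interaction, -1.56 log2 units (95% interval -2.72 to -0.41, limma adjusted p = 0.755). The lectin gene AT5G03350 followed at -0.78 (-1.53 to -0.03, limma adjusted p = 0.763), or -0.48 without white light replicate 1. AT3G28220 had -0.60 (-1.22 to 0.02), which became -0.38 without far-red replicate 2 and -0.39 without white light replicate 1. The iron-response factor gene BHLH101 had -0.50 (-1.59 to 0.60), and single left-out arrays gave -0.81 (far-red replicate 1) to 0.05 (far-red replicate 3). Its values also moved by over 1.5 times without replicate 2 of the white-light group (-0.22) and without replicates 2 (-0.30) or 3 (-0.80) of the far-red with ABA group. The highest value was that of AT1G09500 at 0.87 (-0.14 to 1.89, limma adjusted p = 0.805), or 0.57 without white light replicate 2. FDH followed at 0.55 (0.01 to 1.10, limma adjusted p = 0.77). None of these genes passed after adjustment.

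Where a group without ABA had no present call, the interaction sets bounds against each other and gives no exact size. This holds for ATC, with a fitted value of 0.52 (0.04 to 1.00), and, in white light, for AT5G22460, with 0.37 (-0.24 to 0.98). PUB19, with 0.00 (-0.51 to 0.51), had few present calls with ABA as well, and its value gives no exact size either. The value of AT5G22460 also rested on single arrays, since it was 0.07 when far-red replicate 2 was left out and 0.67 when replicate 3 was. The same limit applies to PRX52, AT1G16850 and, under far-red, AT1G01250. For 44 of the 66 members the interval lay within 1 log2 unit of 0, beside 22535 of all 22746 probe sets. The 44 include members whose value gives no exact size, such as PRX52 and PUB19.

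**Figure D5:**
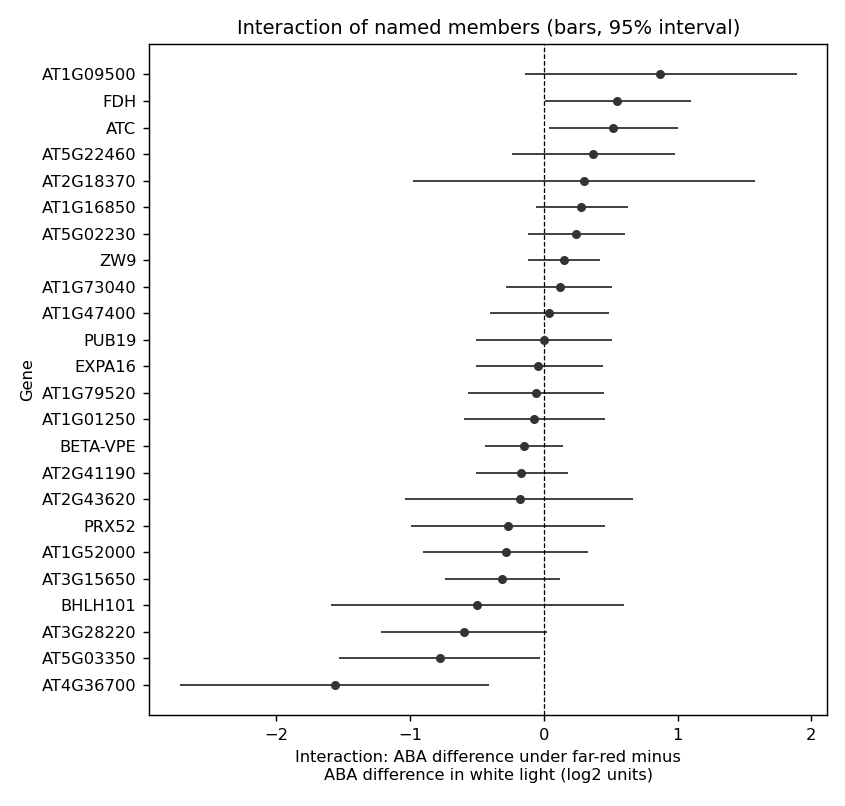
Interaction of the 24 named members in log2 units, the ABA difference under far-red minus the ABA difference in white light, with bars for 95% intervals from limma and a dashed line at 0. The points run from -1.56 for AT4G36700 to 0.87 for AT1G09500, and most intervals include 0. Those of ATC, PUB19, PRX52, AT1G16850, AT5G22460 and AT1G01250 come from groups without a present call and give no exact size.

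The 3 members with the lowest interaction p-values were without a single listed gene, and were chosen for description after their values were seen. The probe set 260357_at read 5.05, 5.19 and 5.38 in white light, 6.54, 6.58 and 6.57 with ABA, 4.67, 4.76 and 4.66 under far-red and 6.77, 6.64 and 6.56 with both. Its level without ABA was lower under far-red on every array, and its level with ABA overlapped between the light conditions. The interaction was 0.60 (0.33 to 0.88, limma adjusted p = 0.529). The probe set 265091_s_at, which is listed with several genes, read 7.50, 7.82 and 7.62 in white light, 9.40, 9.39 and 9.16 with ABA, 8.21, 8.51 and 7.91 under far-red and 8.93, 9.18 and 8.86 with both. Its interaction was -0.89 (-1.31 to -0.48, limma adjusted p = 0.533). Without ABA every far-red array lay above every white-light array, and with ABA the light conditions overlapped. The probe set 250558_at read 6.89, 7.03 and 7.03 in white light, 8.78, 8.71 and 8.41 with ABA, 7.62, 7.65 and 6.74 under far-red and 7.73, 8.10 and 7.66 with both. Here the arrays with ABA were lower under far-red in every case, and the interaction was -1.16 (-1.74 to -0.58, limma adjusted p = 0.561). Without far-red replicate 3 this probe set alone of the members passed, at -1.46 with a limma adjusted p of 0.0206. In that setting its averaged ABA effect fell under the limit of 1, so the rule would not have chosen it.

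The other probe sets with an averaged ABA effect of at least 1 and a highest mean of at least 5, beyond the far-red limit, numbered 28. Their interaction is independent of both averaged effects, but the level limit reads single group means. How many of the 28 met it through only 1 group was not counted. The interaction had a median of -0.24 log2 units, with 7 above 0 and 21 below, and 0 of the 28 passed. At an unadjusted p under 0.05 in limma there were 7 (25%), beside 6.44% of all probe sets. Its size was under 0.3 in 12 of them (42.9%), against 91% of all probe sets. Their pooled SD within groups had a median of 0.26 against 0.13. The difference between these probe sets and the members was not tested.

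Known genes of the ABA pathway could be followed only in part, because of 153 genes on 14 lists 14 were measured on probe sets of a single listed gene. None of the measured 14 is a member, in part because COR15A, LTI30, LEA4-5, HIS1-3 and SAG29 were left out by name. Whether other list genes are among the 40 unlisted members could not be seen. Receptors, phosphatases, SnRK2 kinases, ABA synthesis genes and galactinol synthases were not among the measured genes. The list of late-embryogenesis-abundant, dehydrin and cold-regulated proteins held 28 genes, among them HIS1-3, which encodes a linker histone. Of the 28, 9 were measured and 7 rose in each light condition. Over all probe sets 4.02% rose in white light and 5.06% under far-red. The medians of the 9 were 1.73 in white light and 1.39 under far-red, beside -0.0022 and -0.01 over all probe sets. The lists were chosen with earlier results of these data known. COR15A, LTI30, LEA4-5 and HIS1-3 met the limits of the set and were left out by name. COR15B (1.62 and 1.39 log2 units) missed it with an averaged far-red effect of -1.08, AT3G02480 (3.10 and 1.11) with 0.49, and COR47 (0.61 and 0.79) with an averaged ABA effect of 0.70. AtLEA4-1 (0.29 and 0.08) and LEA18 (0.33 and 0.19) did not pass in either light condition and had no present call. AT5G52050, a MATE-family exporter of ABA, rose by 0.49 in white light and had a difference of 0.17 under far-red (limma adjusted p = 0.324). The wax synthase gene WSD1 had a difference of 0.35 in white light (limma adjusted p = 0.0703) and rose by 0.49 under far-red. Of the senescence list, SAG29, which also met the limits, rose by 1.59 and 2.34. WRKY53 had differences of 0.48 and 0.26 that did not pass, and it had no present call in the white-light group. EEL, a bZIP factor of the seed, had 0.00 and -0.01, at group means of 3.04 to 3.08. Its only present call was on 1 far-red array, so no lack of response can be read from it.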

How the data were processed

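Total RNA of 12 samples was labelled with biotin and hybridised to 1-colour Affymetrix arrays, per the labels' protocols. The deposited values are log2 expression values per probe set made by RMA (robust multi-array averaging) in affy, and the present, marginal and absent calls are from MAS5, per the submitters' processing notes. Their versions were not given in the sources used here. RMA sets arrays to a common distribution and compresses low values.

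The 64 control probe sets of 22810 were left out. Names came from the platform's annotation and, for the 24 members with 1 gene, from RefSeq (TAIR10.1). The members and gene lists were chosen with earlier results of these data known. Any member with 1 gene could be named. Values on every array were given for members with 1 gene that were chosen by size. These had the 15 largest averaged ABA effects or the 4 highest or 4 lowest interactions. Values were also given for PUB19, which met neither condition, and for probe sets without 1 gene chosen after their values were seen. Genes that are no members were named from the lists.

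The test was limma 3.58.1 (R 4.3.3) with a mean per group over all 12 arrays, eBayes and Benjamini-Hochberg adjustment over 22746 probe sets, two-sided, threshold 0.05. Residual degrees of freedom were 8, with 7.21 added by the prior, and the number of arrays limits the precision. It was tested on simulated data. Where no array of the lower group had a present call, folds are bounds, against the higher of the probe set's value and the lowest present value of each array (2.46 to 2.80), averaged. These bounds come from group means and do not allow for the spread between arrays. For PUB19, with few present calls in either group with ABA, the fold is not a firm bound. Alternatives changed the scaling, variance model, array weights, filter, block, fitted groups, arrays and rule limits. Promoter and protein sequences, planned as a description, were not analysed here.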

Additional observations from a re-analysis of the deposited data

How the results depend on the processing

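The count of members called for ABA kept within 1.5 times its value under all alternatives. With 1 array left out it was 58 to 64 in white light and 56 to 62 under far-red, and under the other alternatives 57 to 65 and 54 to 62. Called genes on the pathway lists numbered 8 to 10 in white light and 8 to 9 under far-red. Of 2374 member ABA differences recomputed, 0 changed sign and 3 moved by more than the spread between replicates. The far-red count without ABA, 2 members, became 1 with median-centred arrays or a fit of the compared groups alone, 5 with the replicate block (among these the named gene AT3G28220, at 0.60 with a limma adjusted p of 0.0274), and 1 to 5 with an array left out (5 without white light replicate 2, 1 without far-red replicate 1 or 2 or white light replicate 1 or 3). With ABA it was 0, and became 1 with array weights or a fit of the compared groups alone, 2 with the replicate block, and 0 to 1 with an array left out (1 without far-red replicate 3). For the interaction, the members called stayed at 0 except without an array, 0 to 1. There 250558_at passed without far-red replicate 3, a setting in which it missed the rule's ABA limit. Over all probe sets the count called was 0, 2 with a trended robust variance and 0 to 2 with an array left out (2 without far-red replicate 3, 1 without white light replicate 3). The interaction of BHLH101 was -0.81 to 0.05 with an array left out, against -0.50, and changed sign without far-red replicate 3. The median interaction over the members ran from -0.045 to 0.075.

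The rule itself chose 46 members with a far-red limit of 0.2, 76 with 0.4, 22 with an ABA limit of 1.5, 52 with a level limit of 6 and 70 after median centring or quantile normalization. With 1 array left out it chose 62 to 73, of which 55 to 63 were among the 66, and 38 members (14 named) were chosen whichever array was left out. Median centring changed the split of calls over all probe sets for ABA from 62.5% to 43.9% higher in white light and from 48.9% to 59.6% under far-red, while the members' medians were 1.29 and 1.35. Replicate numbers did not meet the rule for pairs, since the correlation of deviations of same-numbered arrays exceeded 0.1 in 8 of 18 pairs (range -0.05 to 0.27), 3 of them the pairs of far-red and far-red with ABA arrays (0.12, 0.14 and 0.27, for which the replicate block called 62 members in place of 61), though 11 of 12 arrays were closest to their own number. The number of arrays limits the interaction, with a median 95% half-width of 0.49 log2 units over the members.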
